A study of Homo sapiens with 6 samples.

Results

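MGMT and 7 other genes that repair alkylated DNA were followed in D283 Med, an established cell line grown from a childhood medulloblastoma, a tumour of the cerebellum. The 8 genes were taken by symbol from the deposited expression table of 31785 rows, and all 8 were found. They are MGMT, MPG, ALKBH2, ALKBH3, APEX1, XRCC1, PARP1 and MSH6. They were chosen by their values in the contrast of knockdown against WT, in which MGMT differed, so their differences are given as a description with no test.

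RNA had been sequenced in 6 libraries of this line. The labels call 3 of them knockdown of Musashi-1, which binds RNA in neural stem cells and is encoded by MSI1, and 3 of them WT. All 6 came from the same line in serum-containing medium. The method of knockdown, any control construct in the WT cells, the time of harvest, any picking of clones and the use of separate cultures are not stated in those labels. The p-values below therefore measure the spread between these libraries, which may be technical. Knockdown 2 and the like name libraries by their labels, and WT 1 to WT 3 carry the numbers of the table's column headings.

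Alkylating agents, among them temozolomide and the nitrosoureas used against brain tumours, place methyl or larger groups on DNA bases, and cells remove these by several routes. MGMT takes the group from the oxygen of guanine onto its own cysteine and is used up in the act, so its amount sets how many such lesions a cell can reverse. ALKBH2 and ALKBH3 oxidise methyl groups off ring nitrogens, and MPG cuts out bases methylated at other nitrogens, leaving an abasic site. APEX1 nicks the strand there, and PARP1 and XRCC1 help to close the break. Where MGMT is low, mismatch repair, for which MSH6 is a sensor, reads the damaged guanine and sets off the toxic response, so the loss of mismatch repair makes cells tolerant.

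MGMT lies on the plus strand of chromosome 10 at 129467184 to 129768007 (GRCh38, GENCODE 29), a span of 300824 bases that carries 3557 bases of exon. Its promoter is a CpG island whose methylation is known to silence the gene in brain tumours, and the stretch just before the start is shown for that reason, from RefSeq on GRCh38.p14, plus strand, chr10:129466991-129467183, with each CG in capitals. It ends at the last base before the annotated gene.
MGMT: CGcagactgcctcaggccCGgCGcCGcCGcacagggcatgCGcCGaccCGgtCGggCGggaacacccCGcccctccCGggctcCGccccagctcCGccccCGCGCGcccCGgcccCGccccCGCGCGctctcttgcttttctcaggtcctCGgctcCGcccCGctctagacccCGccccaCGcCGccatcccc
These 193 bases hold 28 CG pairs and 7 copies of GGGCGG, the GC box bound by SP1, counted on both strands with overlaps allowed. In the whole window of 300 bases around the start MGMT had 45 CG pairs, a number reached by 3.48% of the 35116 RefSeq promoters of that length, whose median was 14. The other 7 genes had between 19 and 39. MGMT had 8 GC boxes there, as many as 0.812% of promoters had or exceeded, while 45% of promoters held at least 1. Methylation was not measured in these libraries.

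MGMT was the gene of this set that stood apart. It had 46.5, 23.9 and 60.1 normalised reads in knockdown libraries 1, 2 and 3, against 240, 257 and 132 normalised reads in WT libraries 1, 2 and 3. A normalised read is a read divided by the library's size factor. All 3 knockdown-labelled libraries lay below all 3 WT libraries, with knockdown 2 lowest and WT 3 nearest to the knockdown group. The means were 43.5 ± 18.3 in knockdown and 210 ± 67.9 in WT (SD, n = 3 each), so the libraries labelled knockdown held 20.7% of the WT level. On the deposited log2-like scale, which compresses differences of weakly expressed genes, knockdown minus WT was −1.24 (SE 0.20). In bulk RNA, fewer expressing cells and less RNA per cell cannot be told apart. MGMT had 46, 19 and 56 reads in knockdown and 164, 408 and 172 reads in WT, and with exact Poisson intervals at 95% the highest upper bound in knockdown was 78.0 normalised reads, against a lowest lower bound of 113 in WT. These intervals cover counting error only, and since MGMT was chosen for this contrast their separation tests nothing.

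**Figure D1:**
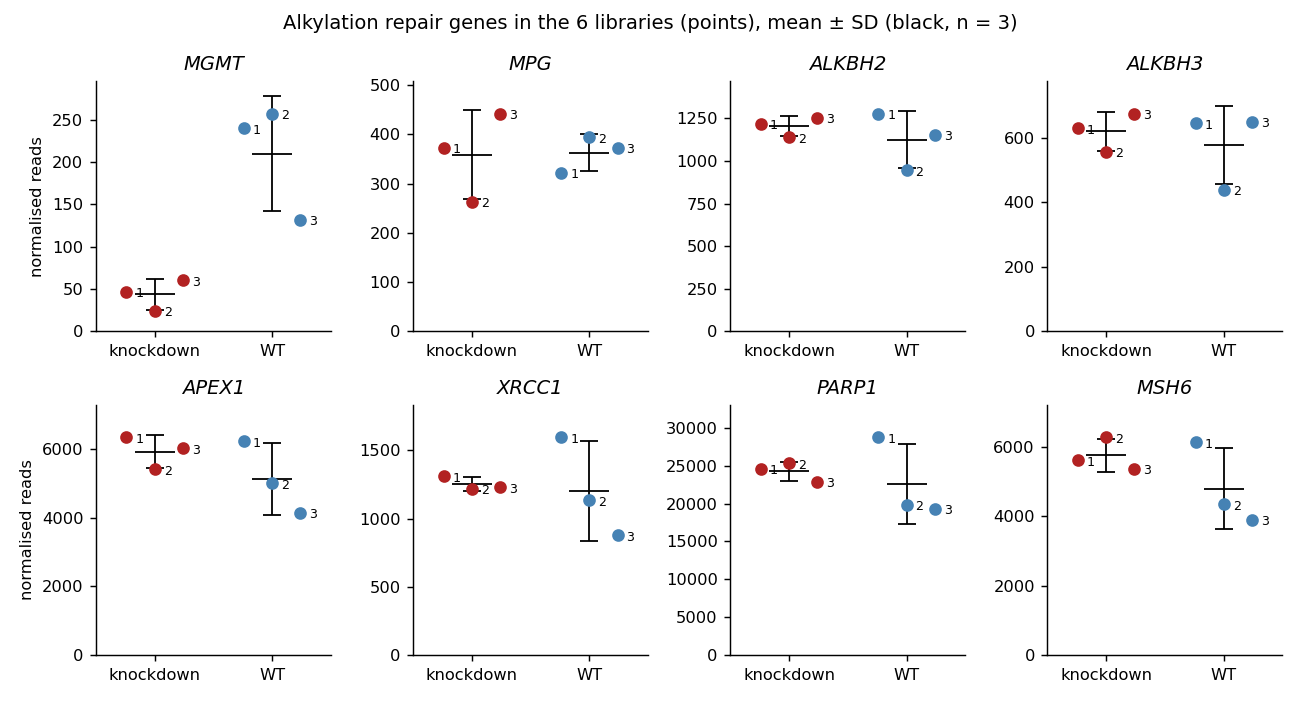
Normalised reads (y axis, from 0) of the 8 genes in the libraries labelled knockdown (red) and WT (blue). Points are libraries with their numbers and black bars are means ± SD (n = 3). MGMT lies between 23.9 and 60.1 in knockdown and between 132 and 257 in WT, and the groups of the other 7 genes overlap.

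The other enzymes of direct reversal and the glycosylase had overlapping groups. ALKBH2, which repairs double-stranded DNA, had 1218, 1139 and 1253 normalised reads in knockdown and 1278, 945 and 1154 in WT. ALKBH3, which prefers single-stranded DNA and RNA, had 629, 556 and 675 normalised reads in knockdown and 646, 439 and 649 in WT. MPG, the glycosylase for methylated purines, had 372, 263 and 442 normalised reads in knockdown and 322, 394 and 373 in WT. In ALKBH2 and ALKBH3 a WT library, WT 2, was the lowest of the 6, whereas in MPG knockdown 2 was lowest and knockdown 3 highest. The differences of knockdown minus WT on the log2-like scale were 0.10 (95% interval −0.19 to 0.38) for ALKBH2, 0.10 (−0.24 to 0.44) for ALKBH3 and −0.03 (−0.39 to 0.33) for MPG.

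The genes that act after the base is cut out also overlapped. APEX1, the main endonuclease for abasic sites, had 6338, 5407 and 6024 normalised reads in knockdown and 6229, 4999 and 4143 in WT. PARP1, which marks strand breaks with poly(ADP-ribose), had 24625, 25308 and 22884 normalised reads in knockdown and 28761, 19848 and 19308 in WT. XRCC1, the scaffold of single-strand break repair, had 1311, 1217 and 1231 normalised reads in knockdown and 1596, 1133 and 877 in WT. For PARP1 and XRCC1 the WT libraries spanned the knockdown libraries on both sides, with WT 1 highest and WT 3 lowest. The differences were 0.22 (95% interval −0.12 to 0.56) for APEX1, 0.12 (−0.26 to 0.51) for PARP1 and 0.09 (−0.30 to 0.48) for XRCC1. MSH6, a sensor of mismatched bases, had 5617, 6275 and 5373 normalised reads in knockdown and 6128, 4349 and 3905 in WT, a difference of 0.28 (−0.08 to 0.64). In MSH6 too, WT 1 lay among the knockdown libraries and WT 3 was lowest of the 6.

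The WT libraries varied more than the knockdown libraries in 7 of the 8 genes, MPG being the exception. The SD on the log2-like scale was 0.05 in knockdown and 0.40 in WT for XRCC1, and 0.07 in knockdown and 0.32 in WT for PARP1. Over all 13558 genes tested the median SD was 0.12 in knockdown and 0.18 in WT. All 8 genes passed the filter on low values, a mean of at least 1 above the lowest value of the table. In limma's test with Benjamini-Hochberg adjustment over all genes tested, 1 of the 8, MGMT, was past an adjusted p of 0.05, a call that its choice had fixed, beside 4.1% of all genes (1.78% higher and 2.32% lower in knockdown). The groups did not overlap in 1 of the 8, beside 27.8% of all genes. Because MGMT entered the set for this contrast, nothing is read from either count.

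Per kilobase of annotated exon the 8 genes kept nearly the same order in both groups. PARP1 (3386 ± 174 in knockdown, 3158 ± 740 in WT) and APEX1 (3141 ± 251 and 2717 ± 556) were highest in normalised reads per kb (SD, n = 3 each, knockdown first). Their values overlapped in both groups, with PARP1 above APEX1 in each library except knockdown 3. ALKBH2 (526 ± 25.5 in knockdown, 492 ± 73.4 in WT) and MSH6 (524 ± 42.5 and 436 ± 107) came next. Their values overlapped too, with ALKBH2 above MSH6 in each library except knockdown 2. XRCC1 had 362 ± 14.7 in knockdown and 347 ± 105 in WT, ALKBH3 had 261 ± 25.3 and 244 ± 50.8, and MPG had 216 ± 54.4 and 219 ± 22.3, with neighbours in this order overlapping in at least 1 group. MGMT was last in each of the 6 libraries, with 12.2 ± 5.14 in knockdown and 59.0 ± 19.1 in WT. By the length of the main transcript instead of all exons the order of the means was the same in both groups, but the distances changed. PARP1 then had means of 6132 in knockdown and 5720 in WT, against 3991 and 3453 for APEX1. ALKBH2 had 1039 and 971, against 770 and 641 for MSH6. How close these pairs lie thus depends on the length used.

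MSI1 itself checks the labels. It had 1385, 1197 and 1281 normalised reads in knockdown and 1586, 1572 and 1378 in WT, where the highest knockdown library exceeded the lowest WT library. The difference was −0.21 (SE 0.12), with an adjusted p of 0.304 in limma, so at the mRNA level the libraries labelled knockdown were not shown to have lost MSI1, and every direction here refers to those labels. Depth was 18895997 to 24442276 reads in knockdown and 17299671 to 38790342 in WT. Of the medulloblastoma markers OTX2, MYC, NPR3, IMPG2, GABRA5 and EOMES, EOMES was at 19.6 normalised reads or fewer in every library and the others were expressed. The 6 summed to 67102 to 76449 normalised reads in knockdown and 52566 to 71855 in WT, and their part in the results was not tested. The markers of blood cells that were measured, PTPRC and CD68, summed to 0 in each knockdown library and to 1.54 to 2.93 normalised reads in WT. The 4 fibroblast markers summed to 275 to 332 in knockdown and 302 to 337 in WT.

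For the other genes of these routes, a list of 54 genes of alkylation repair and lesion tolerance was drawn up. All 54 were in the table and passed the filter. In limma's test 1 fell and none rose, 1.85% of the list beside 4.1% of all genes, while 15 had an unadjusted p under 0.05, a cut that 21.95% of all genes tested passed. Their median difference was 0.09, beside 0.01 for all genes tested, and 32 were higher and 22 lower, where 51.0% of all genes tested were higher. The groups did not overlap in 22 of the 54 (40.7%, 16 higher and 6 lower in knockdown), beside 27.8% of all genes.

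The gene that fell was OTUD4, the deubiquitinase known to hold ALKBH2 and ALKBH3 protein stable together with USP7 and USP9X. OTUD4 had 1913, 2054 and 1872 normalised reads in knockdown and 3126, 3541 and 3435 in WT. The groups were far apart and each was narrow. Its mean was 1946 ± 95.1 in knockdown and 3367 ± 216 in WT (SD, n = 3 each), a 1.73-fold fall (difference −0.76, SE 0.11, limma adjusted p = 0.00805). The call was missed without knockdown 1 (limma, adjusted p = 0.0567) and without knockdown 3 (0.0533), and held in the other 13 alternatives, whose differences lay between −0.81 and −0.72. USP7 (−0.12, SE 0.13) and USP9X (−0.14, SE 0.15) did not pass. ASCC1, a subunit of the complex that works with ALKBH3, was at 814 ± 83.3 normalised reads in knockdown and 581 ± 6.09 in WT (SD, n = 3 each), a difference of 0.42 that did not pass (limma, adjusted p = 0.0774).

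**Figure D2:**
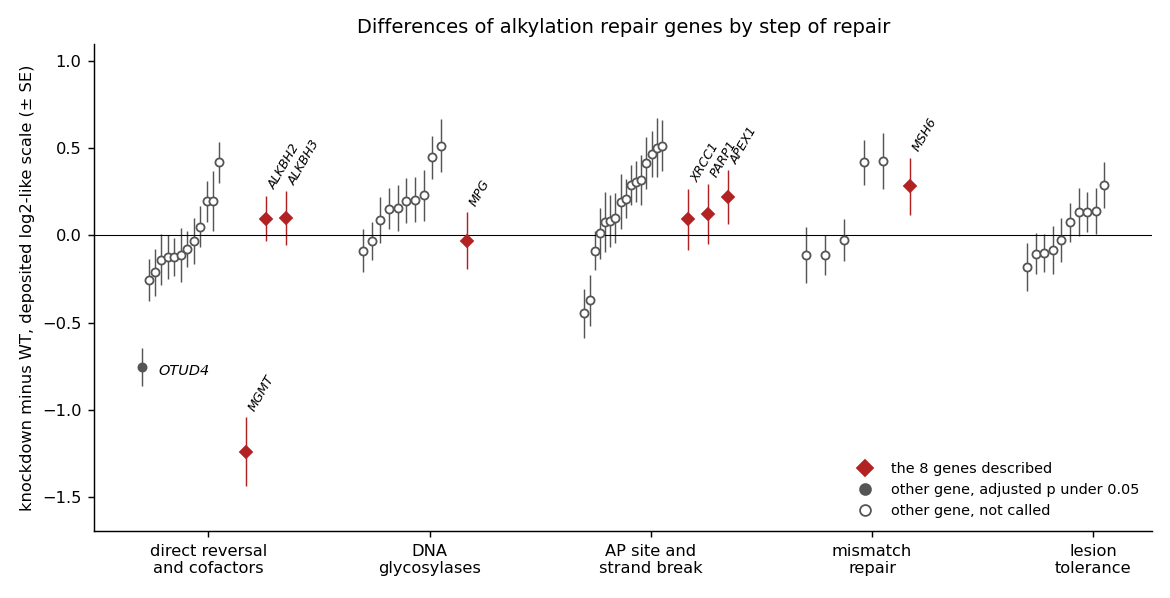
Knockdown minus WT on the deposited log2-like scale (y axis, ± SE) for the 8 genes (red diamonds) and the 54 other genes (circles, filled where limma's adjusted p was under 0.05), by step of repair (x axis). MGMT at −1.24 and OTUD4 at −0.76 are the lowest, and most strand break genes lie above 0.

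Base excision and strand break genes were mostly higher in knockdown without passing. Of 10 other DNA glycosylases none passed in limma, 2 had an unadjusted p under 0.05 (21.95% of all genes tested), 8 were higher (51.0% of all genes) and the median difference was 0.18. NEIL3, which removes oxidised bases, had 681, 760 and 695 normalised reads in knockdown and 414, 613 and 398 in WT (difference 0.51, adjusted p = 0.0891). UNG, the uracil glycosylase, had 2686, 2668 and 2687 in knockdown and 2253, 1731 and 1859 in WT (0.45, adjusted p = 0.0692). Both had groups that did not overlap, with the WT libraries spread more widely. The groups did not overlap in 3 of the 10 glycosylases (30%), beside 27.8% of all genes tested. Of 16 genes for abasic sites and strand breaks none passed, 8 had an unadjusted p under 0.05, 13 were higher and the median was 0.20, beside the same 21.95%, 51.0% and 0.01 over all genes tested. The largest differences there were those of ADPRHL2, which removes ADP-ribose from serines (0.52, adjusted p = 0.0771), and LIG1, the replicative ligase (0.51, adjusted p = 0.118). The 16 include other genes that also serve DNA replication, of which PCNA (0.47) and FEN1 (0.42) were higher and RFC1 (−0.45) lower. In all, 3 of the 16 were lower. The part of replication in these differences was not tested.

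The partners of XRCC1 and PARP1 were not called. LIG3, the ligase bound to XRCC1, had 2212, 1673 and 2170 normalised reads in knockdown and 3089, 2551 and 2290 in WT, with every knockdown library below every WT library, but did not pass (difference −0.37, SE 0.15, limma adjusted p = 0.178). The log2 ratio of XRCC1 to LIG3 reads was −0.68 ± 0.19 in knockdown and −1.17 ± 0.22 in WT (SD, n = 3 each), and the groups did not overlap. Groups of single genes did not overlap in 27.8% of all genes tested, and the share among ratios of other gene pairs was not computed. LIG3 lies on chromosome 17, where 61 of the 70 tested genes within 5 Mb of it were lower in knockdown, with a median of −0.34. Over all genes tested 51.0% were higher and the median was 0.01. The part of this region in the ratio was not tested. PARP2, which shares the break signal with PARP1, differed by 0.08 (SE 0.17), and the log2 ratio of PARP1 to PARP2 reads was 3.73 ± 0.18 in knockdown and 3.69 ± 0.08 in WT.

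The other mismatch repair genes reported here were expressed in both groups and none was called. Of 5 such genes, 2 had an unadjusted p under 0.05 in limma, beside 21.95% of all genes tested, 2 were higher and 3 lower in knockdown, and the median difference was −0.03. EXO1, the exonuclease of this pathway, had 2688, 3287 and 2659 normalised reads in knockdown and 2722, 1843 and 1838 in WT (difference 0.43, adjusted p = 0.16). PMS1, a MutL homologue, had 850, 1157 and 1040 in knockdown and 717, 757 and 707 in WT (0.42, adjusted p = 0.0989). WT 1 lay among the knockdown libraries for EXO1, whereas the groups of PMS1 did not overlap. PMS2, the endonuclease of mismatch repair, had 435 ± 60.9 normalised reads in knockdown and 483 ± 117 in WT (SD, n = 3 each).

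Of 10 lesion tolerance genes none passed in limma, 1 had an unadjusted p under 0.05, beside 21.95% of all genes tested, 5 were higher and 5 lower, and the median difference was 0.03. RAD18, the ubiquitin ligase that starts bypass of damaged bases, differed by 0.29 (adjusted p = 0.226), and REV3L, the catalytic subunit of polymerase zeta, by −0.18 (adjusted p = 0.485).

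Genes known to act on MGMT transcription were listed as well. Among 7 such regulators 1 fell and none rose in limma's test, 14.3% of the list beside 4.1% of all genes. FOS, a subunit of AP-1, which is known to bind the MGMT promoter, had 940, 966 and 861 normalised reads in knockdown and 1293, 1464 and 2166 in WT (difference −0.73, SE 0.17, adjusted p = 0.0419). The groups did not overlap, and WT 3 was the highest. FOS missed the threshold in 5 of 15 alternatives, among them without knockdown 1, 2 or 3 and without WT 2 (limma, adjusted p of 0.143, 0.102, 0.145 and 0.0724). JUN, another subunit of AP-1, did not pass (−0.37, SE 0.27), with 3520, 1366 and 3118 normalised reads in knockdown and 3067, 3472 and 3156 in WT, and SP1 did not either (0.11, SE 0.11).

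Of 9 writers, erasers and readers of CpG methylation none passed in limma, and 3 had an unadjusted p under 0.05, beside 21.95% of all genes tested. The largest differences were those of TET2 and TET1, enzymes that oxidise methylcytosine. TET2 had 464, 594 and 625 normalised reads in knockdown and 742, 784 and 838 in WT (−0.43, adjusted p = 0.0955). TET1 had 1147, 1571 and 1456 in knockdown and 1116, 902 and 1137 in WT (0.37, adjusted p = 0.171). These enzymes thus lay on opposite sides of 0. DNMT1, the maintenance methyltransferase, differed by 0.13 (SE 0.17).

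Of 28 tested genes within 5 Mb of MGMT on either side, 2 rose and none fell in limma's test, 7.14% beside 4.1% of all genes. In limma 7 of them had an unadjusted p under 0.05, beside 21.95% of all genes tested. Of the 28, 21 were higher and 7 lower in knockdown, where 51.0% of all genes tested were higher. The median difference was 0.08, beside 0.01 over all genes tested. The lowest of the 28 was CTBP2, a transcriptional corepressor, at −0.23, which did not pass. The nearest tested gene beyond its end, EBF3, a transcription factor of neuronal differentiation on the minus strand whose nearer end, its 3′ end, lies 67.3 kb away, rose. EBF3 had 191, 162 and 148 normalised reads in knockdown and 35.1, 51.7 and 18.4 in WT, a 4.76-fold rise (difference 1.17, SE 0.16, adjusted p = 0.0067). Every knockdown library was above every WT library, the reverse of MGMT beside it. NPS, the neuropeptide S precursor, which ends 1915 kb before MGMT, also rose (1.44, SE 0.21, adjusted p = 0.0081, and 0.0556 without knockdown 1). The nearest tested gene before MGMT, the proliferation marker MKI67, differed by −0.05 (SE 0.22).

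**Figure D3:**
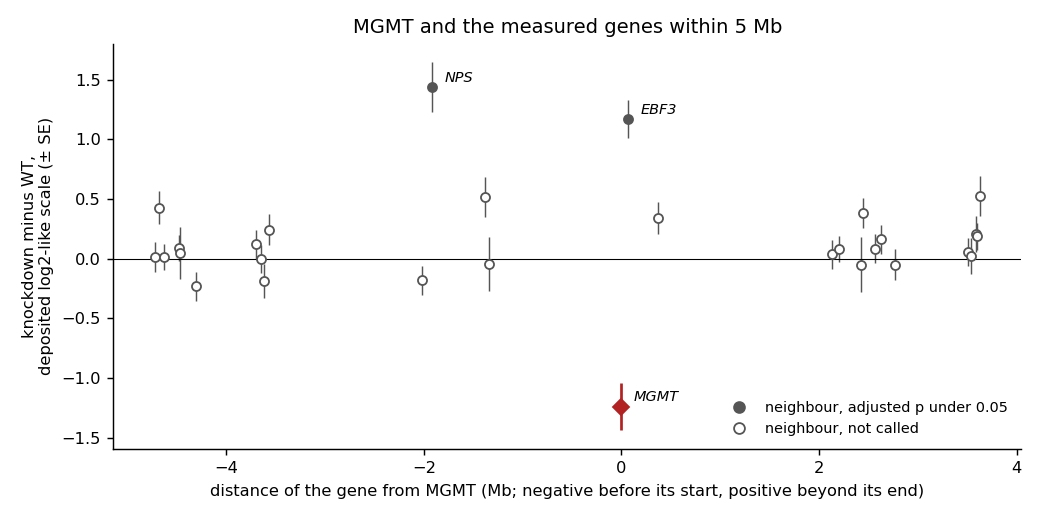
Knockdown minus WT on the deposited log2-like scale (y axis, ± SE) of MGMT (red diamond) and the 28 tested genes around it (circles, filled where limma's adjusted p was under 0.05), against their distance from MGMT in Mb (x axis). MGMT is at −1.24, NPS at 1.44 and EBF3 at 1.17, and none of the neighbours is below −0.23.

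Among 90 genes with a difference of at least 1 in size, the 5 whose values over the 6 libraries were most like those of MGMT were SEMA3A (Pearson r = 0.990), CDH2 (0.989), C3 (0.978), MAT1A (0.977) and TULP1 (0.976). The libraries fall in 2 groups, which sets most of such a correlation, so it is given as a description. All 5 were lower in knockdown, and in all 5 knockdown 2 was the lowest library, as for MGMT. Their choice by likeness to MGMT favours both traits, so neither is support. In TULP1 knockdown 2 was all but level with knockdown 1 (98.1 and 98.2 normalised reads). WT 2 was the highest library for MGMT and MAT1A, whereas WT 1 was highest for SEMA3A, CDH2, C3 and TULP1. MAT1A, a methionine adenosyltransferase that makes the methyl donor S-adenosylmethionine, had 39.5, 15.1 and 35.4 normalised reads in knockdown and 206, 221 and 164 in WT.

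Musashi-1 is known to bind GTAG, in DNA letters, in the 3′ untranslated regions of its targets. The main transcript of MGMT had 3 copies in a region of 1010 bases, against a median of 2 in 1393 tested genes whose regions were 800 to 1200 bases long. PARP1 had 4 copies in 769 bases, MSH6 had 10 in 3241 and XRCC1 had 1 in 352. No copy was found in the regions of MPG, ALKBH2, ALKBH3 and APEX1, which were 259 bases or shorter, and of the 1829 tested genes with regions up to 300 bases 24.4% held the motif. A match is a string of letters and not a shown site of binding.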

How the data were processed

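RNA was sequenced from 6 libraries of D283 Med cells, 3 labelled knockdown and 3 labelled WT. Per the submitters' processing notes, the tools included STAR, DESeq and CASAVA 1.8.2, and the genome build was GRCh38. The sources used here name no counter or annotation and do not say whether strand was used, so reads of overlapping or antisense genes may be shared. The authors deposited log2-like values, which, judged from the file's name and from the numbers, were divided by a size factor per library and variance-stabilised. The columns headed as knockdown match the labels, and the other 3 were taken as WT by elimination. With x as 2 to the power of a value and c as 2 to the power of the lowest value (5.79), (x − c) squared over x gave normalised reads. After 1 factor per library 100% of values were whole reads within 0.01. Folds are ratios of mean normalised reads.

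Each difference is the knockdown mean less the WT mean of the deposited values. Genes with a mean at least 1 above the lowest value (27.6 normalised reads) were kept, 13558 of 31785 rows. Testing used limma 3.58.1 (R 4.3.3) with a mean-variance trend, two-sided, Benjamini-Hochberg adjustment over kept genes and a threshold of 0.05. The test was also run on counts simulated independently for each gene and library, and nothing here rests on that run. With 3 libraries a group, exact permutation gives no p below 0.1. The 8 genes, the lists and the alternatives were chosen with earlier results of these data known. Named beside the 8 were called list members and neighbours, the pair of largest differences in each list with fewer calls, complex partners, the nearest neighbours of MGMT and the 5 genes most like it. Others were named after their values were seen. Positions and exon lengths are those of GENCODE 29. Some listed genes are not reported here and were left out of the lists and their counts.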

Additional observations from a re-analysis of the deposited data

How the results depend on the processing

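The count of called genes was 556, with 221 under the replicate block and 1213 with library weights, and 56 to 728 with each library left out in turn (56, 125 and 91 without knockdown 1, 2 and 3, and 202 without WT 2). Of the 54 wider repair genes 1 was called. With quantile normalisation there were 2, with library weights 6, and 0 to 6 with a library left out (0 without knockdown 1 or 3, 6 without WT 1, 2 without WT 2 or WT 3). The 1 call among 16 MGMT regulators and DNA methylation genes, FOS, became 0 under the replicate block and 0 to 1 with a library left out (0 without knockdown 1, 2 or 3 or WT 2). The 2 calls around MGMT became 1 with the stricter filter, which removed EBF3 and MGMT itself, 4 with library weights, and 1 to 2 with a library left out. Apart from the removal of EBF3 by the stricter filter, the causes of these changes were not tested. MGMT was −1.45 to −1.10 with a library left out and −2.25 in voom on recovered reads, a scale that does not compress low values. The differences of MPG, ALKBH2, ALKBH3 and XRCC1 had either sign over the alternatives. MSI1 was not called in any of 15. Same-numbered libraries of the groups did not deviate together (r of −0.00, −0.25 and 0.00). With 3 libraries a group, and WT numbers not tied to samples, this cannot settle whether any libraries were paired. The block changed no other call named here.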

Other observations

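MGMT is a long gene, and long genes as a class were somewhat lower in the libraries labelled knockdown. Among protein-coding genes tested, the median of knockdown minus WT was 0.05 for 2053 genes spanning up to 10 kb, −0.07 for 685 genes of 200 to 400 kb, the class of MGMT, and −0.17 for 296 longer genes. Calls of lower genes made up 2.29% of the shortest class, 4.96% of the class of MGMT and 8.11% of the longest. The part of gene length in the MGMT difference was not tested.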
